A study of Mus musculus with 15 samples.

Results

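The interaction of the APOE condition with the letter H or L was measured in RNA sequencing libraries from mouse brain. It asks, for each gene, whether the difference between H and L libraries was itself different in the APOE condition. The value is (APOE_H minus APOE_L) minus (KA_H minus KA_L) on log2(TPM + 1), where TPM is a unit of transcript abundance scaled to transcript length and library size. A negative interaction means that H minus L was lower in the APOE condition than with KA alone, and a positive interaction means that it was higher. The 12 libraries of this 2 by 2 design, of 15 in all, were 3 each of APOE_H, APOE_L, KA_H and KA_L. All came from C57BL/6 mice labelled as a model of temporal lobe epilepsy induced with kainic acid (KA). APOE_H and APOE_L were from the model given KA and APOE, and KA_H and KA_L from the model given KA. The 3 untreated libraries (CTRL_L) have no H counterpart and did not enter the design.

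The labels do not define L or H, and they do not say whether APOE was added, removed or changed in another way. They give no age, sex, dose or time for these groups. Nor is it stated that the 3 libraries of each group are from different animals; the p-values reflect the scatter among libraries, part or all of which may be technical. The labelled tissue was brain and the series concerns reactive astrocytes, but the markers found throughout were those of microglia. Of 22 markers of homeostatic microglia, the resident immune cells of the brain, 21 were at 1 TPM or more in all 12 libraries. Of 20 astrocyte markers 2 were, and of 20 neuron markers 1 was. Only 2 neuron markers were listed at 0 in all 12, Slc17a7 and Slc32a1, which mark excitatory and inhibitory neurons. Summed neuron markers were uneven, from 3.96 TPM in KA_L replicate 2 to 1047 TPM in KA_L replicate 3. In bulk RNA, fewer cells of a type and less RNA per cell cannot be told apart.

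Kainic acid activates kainate-type glutamate receptors and causes seizures, after which microglia change shape, release cytokines and clear debris. Apolipoprotein E carries lipids between brain cells and is made by astrocytes and by activated microglia. Some groups of transcripts recur in the results. Mitochondrial DNA encodes subunits of the respiratory chain and ATP synthase, transcribed as long precursors and cut into separate RNAs. Tyrobp and Fcer1g are small membrane adaptors that pass signals from immune receptors such as Trem2 and the Fc receptors. Immediate early genes are transcribed within minutes of a stimulus and include the transcription factors Fos, Jun and Egr1.

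Apoe, the gene that names the condition, was low in every APOE library. It stood at 144, 6.49 and 12.4 TPM in APOE_H, at 0.69, 0.71 and 0 TPM in APOE_L, at 16636, 10438 and 8767 TPM in KA_H and at 3084, 3262 and 1969.6 TPM in KA_L. The highest APOE library was thus below the lowest KA library, and within each condition all H values lay above all L values. The Apoe interaction was 2.01 (SE 1.20; 95% interval -0.57 to 4.60; limma adjusted p = 0.607), which did not pass the test. It was 0.73 without APOE_H replicate 1, the library at 144 TPM, and depended on the pseudocount, with 0.42 at a pseudocount of 5 and 3.75 at 0.1. H minus L was 4.10 in the APOE condition and 2.09 with KA alone on the log2(TPM + 1) scale.

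Across 16602 tested entries, 18 (0.108%) passed the interaction test at a Benjamini-Hochberg adjusted p under 0.05 in limma. Of these, 2 had a positive interaction (0.012%) and 16 a negative interaction (0.0964%). The smallest adjusted p was 0.029. At an unadjusted p under 0.05 there were 1656 entries (9.97%), of which 1110 were positive (6.69%) and 546 negative (3.29%). The 16 negative entries were 6 transcripts of the mitochondrial genome, 2 nuclear pseudogenes copied from mitochondrial DNA (Gm28437 and Gm29216), the immune genes B2m, Fcer1g and Tyrobp, the translation factor gene Eif4g3, the small nucleolar RNA Gm24616, the ribosomal pseudogene Gm42845, and Churc1 and Tmem147. The 2 positive entries were Blvrb and Tdp1.

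The number of calls rested on single libraries. It was 0 without APOE_H replicate 3, APOE_L replicate 1, KA_L replicate 1 or KA_L replicate 3, while 1357, 1629, 1798 and 1840 entries still had an unadjusted p under 0.05 in limma. It was 4 without APOE_H replicate 1, 8 without APOE_L replicate 3, 1 without KA_H replicate 1, 2 without KA_H replicate 2, 4 without KA_H replicate 3 and 37 without KA_L replicate 2. The fits nearest the main one had 13 calls without APOE_H replicate 2 and 14 without APOE_L replicate 2. Of the 12 fits that each left out a library, Eif4g3 was called in 7, mt-Atp6 in 5, Tdp1 in 0 and each of the other called entries in 1 to 4, with a highest limma adjusted p of 0.144 (mt-Cytb). All 18 interactions kept their sign in every setting in which they were fitted.

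In 14 of the 18 called entries, H minus L had opposite signs in the 2 conditions. In 2, Churc1 and Tmem147, H was higher in both, and in 2, Eif4g3 and Gm24616, H was lower in both. Over all tested entries the signs were opposite in 5764, both positive in 6514 and both negative in 4183. Among the 1656 entries with an unadjusted p under 0.05 in limma they were opposite in 1144. Choosing entries by the size of the interaction itself favours opposite signs, so these counts only describe the called entries. Of all tested entries 58.5% had a positive interaction, and their median was not 0 but 0.41 in the deposited scaling. It was 0.21 after rescaling to nuclear protein-coding genes, 0.07 after upper-quartile scaling and 0.01 after quantile normalization. Values are therefore read against this shift where it matters.

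**Figure D1:**
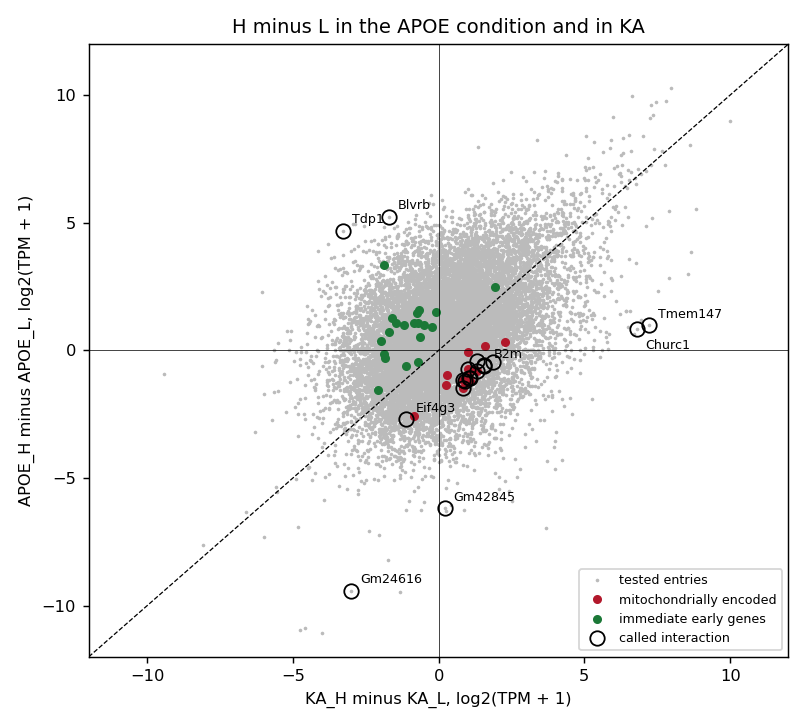
H minus L with KA alone (x axis) and in the APOE condition (y axis), both as differences of group means on log2(TPM + 1), for the 16602 tested entries; the dashed diagonal marks an interaction of 0. Mitochondrially encoded genes (red) lie below the diagonal, the 20 tested immediate early genes (green) lie above it, and the 18 called entries are ringed.

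Mitochondrial transcripts as a share of the library were lower in APOE_H than in APOE_L and higher in KA_H than in KA_L. They made up 4.47% ± 1.42 of all TPM in APOE_H, 8.91% ± 1.43 in APOE_L, 9.33% ± 1.51 in KA_H and 4.77% ± 0.854 in KA_L (SD, n = 3 each). Of 15 mitochondrially encoded protein and ribosomal RNA genes, 14 passed the expression filter and mt-Nd4l did not. All 14 had a negative interaction, between -2.30 (mt-Atp6) and -1.06 (mt-Rnr1), and an unadjusted p under 0.05, and 6 were called, all negative, against 0.0964% of all entries. Their median interaction was -1.95, or -2.36 relative to the median of all tested entries. All 14 stayed negative in each of 26 alternative settings, with a median between -2.48 and -1.36. All KA_H values lay above all KA_L values in 11 of the 14 genes, against 11% of all tested entries. All APOE_H values lay below all APOE_L values in 11, against 9.98%, and both held in 8, against 0.313%.

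mt-Atp6, which encodes the proton channel subunit of ATP synthase, had 6907, 13522 and 10005 TPM in APOE_H, against 25535, 23726 and 33203 TPM in APOE_L. It had 23852, 26130.3 and 18586 TPM in KA_H, against 14302, 14951 and 9809 TPM in KA_L. Neither pair overlapped, and the order of H and L was opposite in the 2 conditions. The interaction was -2.30 (SE 0.32; 95% interval -2.99 to -1.61; limma adjusted p = 0.029), between -2.83 and -1.15 over the settings. mt-Atp8, whose reading frame overlaps that of mt-Atp6 and which encodes another ATP synthase subunit, had an interaction of -2.10 (SE 0.34; limma adjusted p = 0.0343). Its means were 4162 ± 1348 TPM in APOE_H, 9227 ± 1578 TPM in APOE_L, 8306 ± 1022 TPM in KA_H and 4495 ± 1094 TPM in KA_L (SD, n = 3 each).

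mt-Nd1, a core subunit of complex I (NADH dehydrogenase), had 2487, 5268 and 3761 TPM in APOE_H and 8082, 6321 and 9488 TPM in APOE_L. It had 8989.7, 11037 and 7639.5 TPM in KA_H and 4365, 4903 and 3926 TPM in KA_L. The groups again did not overlap within either condition. The interaction was -2.16 (SE 0.34; limma adjusted p = 0.0305). The other complex I genes of the mitochondrial genome did not pass the test over all entries. mt-Nd4 had -1.98 (SE 0.46; limma adjusted p = 0.162), mt-Nd2 -1.60 (adjusted p = 0.154), mt-Nd5 -1.41 (adjusted p = 0.284) and mt-Nd6, the gene on the other strand of the mitochondrial genome, -1.24 (adjusted p = 0.372). mt-Nd3 had lower values in H than in L in both conditions, with means of 389 TPM in APOE_H, 1840.3 TPM in APOE_L, 821 TPM in KA_H and 1489 TPM in KA_L, and an interaction of -1.73 (limma adjusted p = 0.45).

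mt-Cytb, the mitochondrial subunit of complex III, had 3395, 6243 and 4819 TPM in APOE_H and 7658, 7987 and 9266 TPM in APOE_L. It had 11097, 14401 and 10263 TPM in KA_H and 5661, 6008 and 3069 TPM in KA_L. KA_H was the highest group and neither pair overlapped. The interaction was -2.15 (SE 0.36; limma adjusted p = 0.0391). mt-Co2, a catalytic subunit of cytochrome c oxidase, averaged 6218 ± 1952 TPM in APOE_H, 13476 ± 2939 TPM in APOE_L, 12285 ± 2469.7 TPM in KA_H and 6901 ± 1027 TPM in KA_L (SD, n = 3 each), with an interaction of -1.97 (SE 0.33; limma adjusted p = 0.0391). mt-Rnr2, the large ribosomal RNA of the mitochondrion, averaged 2201 ± 552 TPM in APOE_H, 3593 ± 267 TPM in APOE_L, 4809 ± 724 TPM in KA_H and 2379 ± 302 TPM in KA_L (SD, n = 3 each), with an interaction of -1.75 (SE 0.30; limma adjusted p = 0.0391). The small ribosomal RNA mt-Rnr1 did not pass (-1.06; SE 0.40; limma adjusted p = 0.403).

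The remaining cytochrome c oxidase genes shared their sequence with nuclear copies that were called in their place. The nuclear genome holds old insertions of mitochondrial DNA, and reads from an identical stretch can be assigned to either place. Every 31-base word of Gm28437 (chromosome 1) also occurs in mt-Co3, and 97.19% of those of Gm29216 (chromosome 1) occur in mt-Co1. Gm28437 had 7661, 14706 and 11553 TPM in APOE_H, 22074, 20274 and 27806 TPM in APOE_L, 24984, 29491 and 22062 TPM in KA_H and 14138, 13304 and 9352 TPM in KA_L. Its interaction was -2.15 (SE 0.31; limma adjusted p = 0.029), and that of Gm29216 was -2.30 (SE 0.34; adjusted p = 0.0298). How the authors' counting split these reads is not given in the sources used here, so the values of gene and copy are uncertain. Summed before the fit, mt-Co3 with Gm28437 gave -2.16 (limma adjusted p = 0.0289) and mt-Co1 with Gm29216 gave -2.14 (adjusted p = 0.0291), where mt-Co3 alone had -2.29 (adjusted p = 0.125) and mt-Co1 alone -1.94 (adjusted p = 0.113). mt-Atp6 shares 99.54% of its words with Gm10925, and mt-Co2 shares 99.54% with Gm28661. Gm10925 added nothing to mt-Atp6 in any library, so their sum could only repeat the -2.30 of mt-Atp6 alone. It says nothing about how reads were split between these 2. Summed with Gm28661, mt-Co2 gave -2.05 (limma adjusted p = 0.0294).

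**Figure D2:**
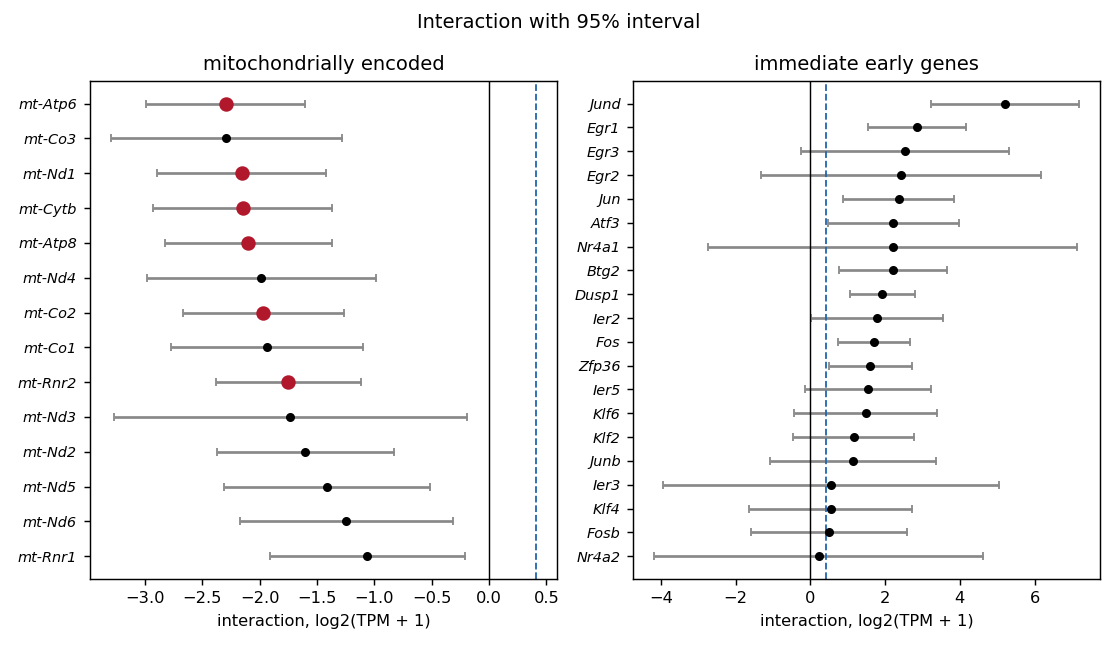
Interaction on log2(TPM + 1) with its 95% interval for the 14 tested mitochondrially encoded genes (left) and the 20 tested immediate early genes (right); the panels have their own axes. Large red points passed the test, the black line is 0 and the dashed blue line is the median of all tested entries, 0.41.

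The nuclear genes of the respiratory chain had values of both signs. Of 76 tested, 0 were called in limma. At an unadjusted p under 0.05 there were 4 positive and 6 negative (5.26% and 7.89%), against 6.69% and 3.29% of all entries. The median was -0.39, changing sign over the settings (-0.91 to 0.17). The member with the smallest p was Sdhd, a membrane subunit of complex II, with 180.0, 184 and 230.3 TPM in APOE_H, 80.7, 108 and 5.67 TPM in APOE_L, 241, 155 and 281 TPM in KA_H and 0, 0.64 and 0.05 TPM in KA_L. KA_L was near 0, and the interaction of -5.18 (SE 1.35; limma adjusted p = 0.231) did not pass. Ribosomal protein genes of the cytosol leaned to the negative side: 21 of 79 were positive, against 58.5% of all tested entries, and the median was -0.64. At an unadjusted p under 0.05 there were 1 positive and 11 negative (1.27% and 13.9%), against 6.69% and 3.29% of all entries, but 0 were called in limma.

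The immune genes with called interactions were highest in KA_H. B2m encodes beta-2-microglobulin, the light chain of MHC class I molecules, which present peptides to T cells. It had 13952, 9127 and 12169 TPM in APOE_H and 16319.6, 12139.5 and 25500.2 TPM in APOE_L. It had 20086, 30146 and 23859 TPM in KA_H and 7810.0, 8625 and 8137 TPM in KA_L. The KA groups did not overlap, whereas APOE_H and APOE_L did, with 2 APOE_H libraries above the lowest of APOE_L. The interaction was -2.14 (SE 0.32; 95% interval -2.84 to -1.44; limma adjusted p = 0.0298), between -2.67 and -0.99 over the settings. On the annotation used, B2m overlaps Patl2 on the opposite strand, and the strand setting of the counting is not given in the sources used here.

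Fcer1g encodes the common gamma chain of Fc receptors, which signals after antibody binding. It had 3127, 2628 and 2344 TPM in APOE_H, 3989, 4018 and 4258 TPM in APOE_L, 5171, 8129 and 6369 TPM in KA_H and 1837, 3197 and 1796 TPM in KA_L. All APOE_H values lay below all APOE_L values, and all KA_H values above all KA_L values. The interaction was -2.16 (SE 0.33; limma adjusted p = 0.0298).

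Tyrobp, also known as DAP12, is the signalling adaptor of Trem2 and other myeloid receptors. It had 7231, 6688 and 6068 TPM in APOE_H, 10077, 7735 and 9271 TPM in APOE_L, 10419.7, 14514 and 14355 TPM in KA_H and 4861, 7051 and 4119 TPM in KA_L. The groups did not overlap within either condition. The interaction was -1.75 (SE 0.27; limma adjusted p = 0.0298). Its receptor partner gene Trem2 had H above L in both conditions, with means of 1629 ± 238 TPM in APOE_H, 659 ± 71.6 TPM in APOE_L, 851 ± 175 TPM in KA_H and 438 ± 182 TPM in KA_L (SD, n = 3 each), and an interaction of 0.29 (SE 0.46; adjusted p = 0.862).

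**Figure D3:**
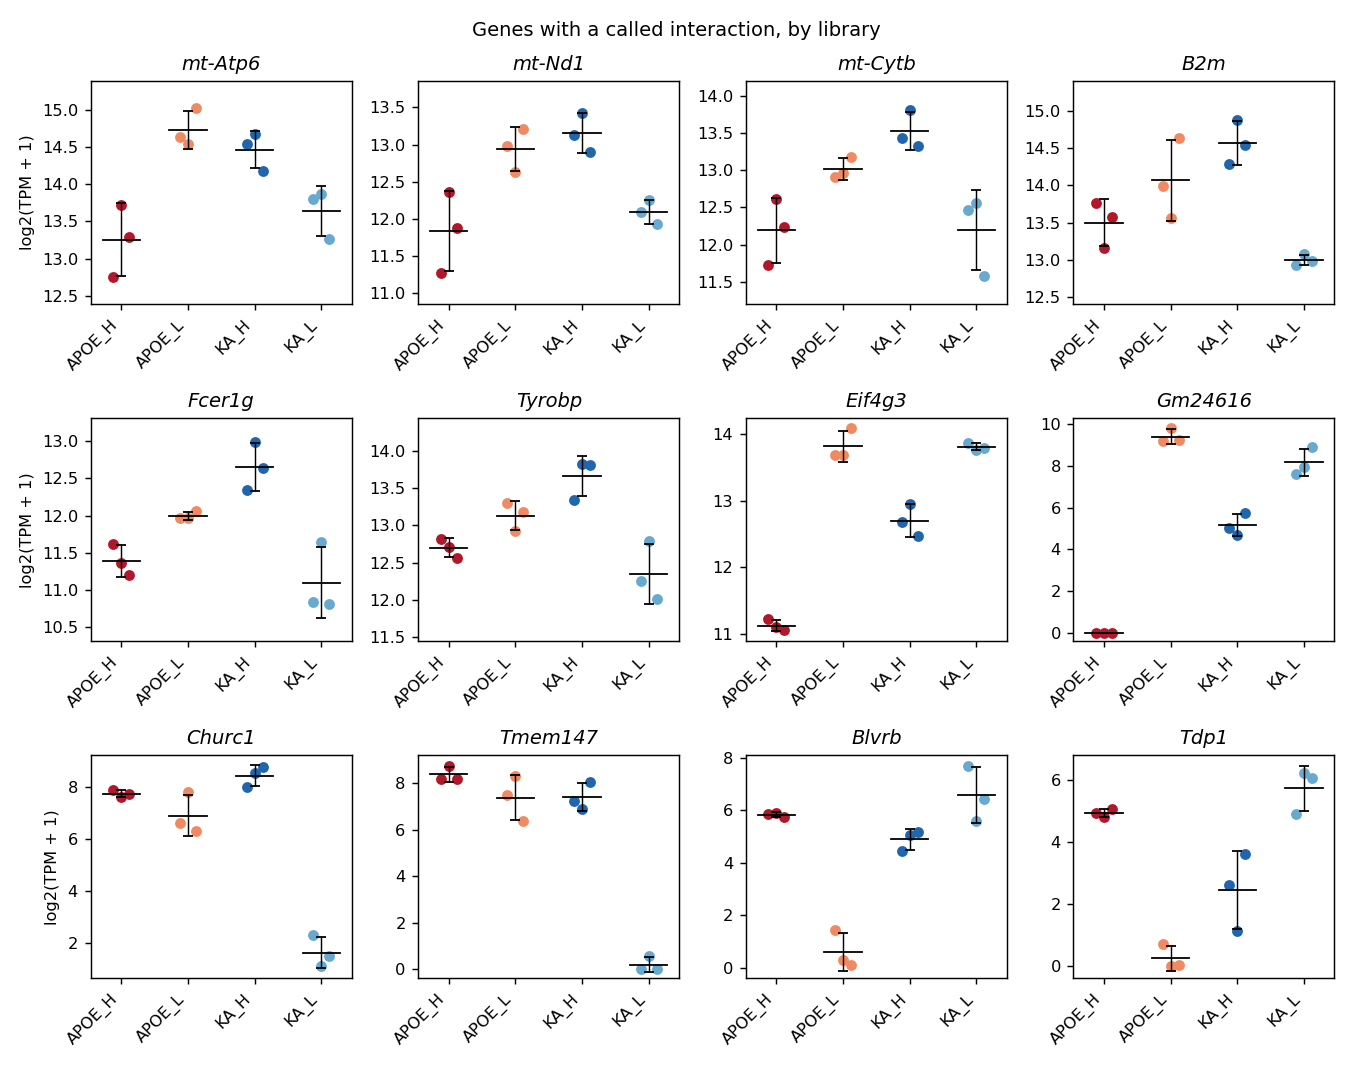
Levels of 12 genes with a called interaction as log2(TPM + 1) in each of the 12 libraries; points are libraries, horizontal lines are group means and error bars are SD (n = 3). Each panel has its own y axis, which does not start at 0 in most; the mitochondrial and immune genes cross between conditions, Eif4g3 and Gm24616 are lowest in APOE_H, Churc1 and Tmem147 are low in KA_L only, and Blvrb and Tdp1 are low in APOE_L.

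The promoter of B2m is shown because interferon control of this gene, a called one, is textbook knowledge. The sequence is from RefSeq (GRCm38.p6), chr2:122147437-122147736, plus strand, 250 bases before to 50 after the start. Capitals mark the match to the core of interferon-stimulated response elements, which is GAAA, any 2 bases and GAAA again, searched on both strands:
B2m: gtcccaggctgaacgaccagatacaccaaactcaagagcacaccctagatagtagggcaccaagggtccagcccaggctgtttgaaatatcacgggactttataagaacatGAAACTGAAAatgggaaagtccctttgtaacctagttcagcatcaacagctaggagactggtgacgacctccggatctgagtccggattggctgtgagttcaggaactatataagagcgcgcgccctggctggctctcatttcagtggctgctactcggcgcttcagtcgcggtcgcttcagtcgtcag
Of 18 promoters of 16 tested MHC class I and antigen processing genes, 4 held a match, those of B2m, Erap1, H2-T23 and Psme1. Of all 32851 mouse promoters of this length, 1131 did (3.44%). Most other members of the list had values of the other sign. Of 18 tested, 14 had a positive interaction, against 58.5% of all tested entries, the median was 1.64, or 1.23 relative to all entries, and B2m was the 1 member called. The heavy chain genes H2-K1 and H2-D1 had interactions of 0.18 (SE 0.55; limma adjusted p = 0.934) and 1.63 (SE 0.84; adjusted p = 0.541). Of 27 tested genes of the interferon response, 18 were positive (66.7%, against 58.5% of all tested entries) and 9 negative, and 0 were called in limma. Their median was 0.37, or -0.04 relative to all entries.

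Microglial lists also held members of both signs. Of 24 tested genes of disease-associated microglia, the state described around amyloid plaques, 2 were called, B2m and Tyrobp, both negative, against 0.0964% of all entries. The list's median was 0.40, close to that of all entries, and changed sign over the settings (-0.13 to 0.56). Of 22 homeostatic microglia genes, 0 were called in limma, and at an unadjusted p under 0.05 there were 7 positive and 2 negative, against 6.69% and 3.29% of all entries. Tmem119, a microglia-specific membrane protein gene, had 946, 413 and 467 TPM in APOE_H, 104, 199.5 and 203 TPM in APOE_L, 101, 86.4 and 63.4 TPM in KA_H and 134, 193 and 118 TPM in KA_L. APOE_H lay above APOE_L and KA_H below KA_L without overlap, and the interaction of 2.62 (SE 0.71; limma adjusted p = 0.249) did not pass. The purinergic receptor P2ry12 had a value of the other sign, -1.11 (SE 0.48; adjusted p = 0.467), as had the receptor Gpr34, -1.95 (SE 0.67; adjusted p = 0.367). Csf1r, the receptor that microglia need to survive, had 2.02 (SE 0.57; adjusted p = 0.263).

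Among lysosomal genes, 28 of 36 had a positive interaction, against 58.5% of all tested entries, 9 positive and 1 negative had an unadjusted p under 0.05, against 6.69% and 3.29%, and 0 were called in limma. Their median was 0.72, or 0.32 relative to all entries, and between 0.13 and 0.59 relative to all entries over the scalings and pseudocounts. Ctsd, which encodes the protease cathepsin D, had 24881, 10229.9 and 26090.1 TPM in APOE_H, 2057, 1524 and 2321 TPM in APOE_L, 4975, 3721 and 3803 TPM in KA_H and 2316, 2481 and 1446 TPM in KA_L. H lay above L in both conditions without overlap. The interaction was 2.25 (SE 0.46; limma adjusted p = 0.123). The chemokine gene Ccl3 averaged 1666 ± 578 TPM in APOE_H, 3678 ± 1081 TPM in APOE_L, 4422 ± 1235 TPM in KA_H and 3767 ± 737 TPM in KA_L (SD, n = 3 each), with an interaction of -1.38 (SE 0.44; adjusted p = 0.341).

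Eif4g3 had the smallest p of all tested entries. It encodes a scaffold protein of the translation initiation complex that binds the mRNA cap, and it lies on chromosome 4. On the annotation used, Eif4g3 overlaps 1700095J12Rik on the opposite strand and the microRNA gene Mir6399 on the same strand. It fell outside the rule for named genes, because its interaction was among the smaller of those called, and is named after its values were seen. It had 2375, 2184 and 2126 TPM in APOE_H, 13252, 13123 and 17418 TPM in APOE_L, 6529, 7941 and 5672 TPM in KA_H and 14924, 13908 and 14215 TPM in KA_L. H lay below L in both conditions, by 2.70 log2 units in the APOE condition and by 1.11 with KA alone. The interaction was -1.59 (SE 0.21; 95% interval -2.04 to -1.15; limma adjusted p = 0.029). It lay between -2.12 and -0.63 over the settings, and was -0.63 after quantile normalization (limma adjusted p = 0.394).

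Gm24616 is a small nucleolar RNA on chromosome 16 that lies inside Eif4a2, a translation initiation factor gene, on the same strand. Small nucleolar RNAs of this kind guide chemical changes of other RNAs and are cut from introns of their host genes. Its annotated transcript (GENCODE M21, GRCm38) has 139 bases. No other gene held over 11.93% of its 31-base words in annotated transcripts. That comparison did not cover introns, and Gm24616 lies inside Eif4a2, so its level is uncertain. The sequence is shown because it is the shortest called RNA that shares few words with annotated transcripts of other genes:
Gm24616: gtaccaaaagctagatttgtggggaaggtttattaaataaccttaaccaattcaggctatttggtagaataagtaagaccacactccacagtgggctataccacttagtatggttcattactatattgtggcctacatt
It was listed at 0 in all 3 APOE_H libraries, against 583, 892 and 599 TPM in APOE_L. It had 32.1, 25.2 and 53.5 TPM in KA_H, against 198, 249 and 477 TPM in KA_L. H lay below L in both conditions without overlap. The fitted interaction was -6.41 (SE 0.91; limma adjusted p = 0.029); since a group is listed at 0, its size depends on the pseudocount, and it lay between -9.70 and -4.24 over the settings.

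Gm42845, a processed pseudogene on chromosome 5 with a transcript of 105 bases, was likewise listed at 0 in all 3 APOE_H libraries, against 69.5, 59.2 and 88.8 TPM in APOE_L. It had 64.2, 108 and 101 TPM in KA_H, against 111, 52.3 and 78.8 TPM in KA_L, which overlapped. All of its 31-base words occur in the ribosomal protein gene Rps7, so its level is uncertain. A value of exactly 0 may be a failed estimate in data of this unit. The fitted interaction was -6.39 (SE 1.01; limma adjusted p = 0.0305), between -9.69 and -4.13 over the settings.

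In Churc1 and Tmem147 the KA_L libraries stood apart. Churc1, a zinc finger gene on chromosome 12, had 231, 194 and 212 TPM in APOE_H, 95.8, 219 and 77.3 TPM in APOE_L and 251, 372 and 428 TPM in KA_H, against 3.92, 1.16 and 1.79 TPM in KA_L. APOE_H and APOE_L overlapped. The interaction was -5.95 (SE 0.89; limma adjusted p = 0.0298). Churc1 overlaps Fntb on the same strand and shares 3.45% of its 31-base words with it, so the counts of the 2 genes are uncertain. Tmem147, a membrane protein gene on chromosome 7, had 293, 435 and 294 TPM in APOE_H, 181, 314 and 81.5 TPM in APOE_L and 153, 119 and 265 TPM in KA_H, against 0, 0.47 and 0 TPM in KA_L. The first 3 groups were all above 80 TPM and KA_L was near 0. The fitted interaction was -6.23 (SE 0.96; limma adjusted p = 0.0298), and since KA_L was near 0 its size depends on the pseudocount, between -8.88 and -4.10 over the settings.

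Blvrb and Tdp1, the positive calls, were near 0 in APOE_L. Blvrb on chromosome 7 encodes biliverdin reductase B, which acts in heme breakdown. It had 57.5, 59.3 and 52.8 TPM in APOE_H, against 1.71, 0.22 and 0.07 TPM in APOE_L. It had 20.9, 32.5 and 34.9 TPM in KA_H, against 208, 48.1 and 86.3 TPM in KA_L. The order of H and L was opposite in the 2 conditions, without overlap. The interaction was 6.93 (SE 1.16; 95% interval 4.44 to 9.43; limma adjusted p = 0.0391), between 5.03 and 8.66 over the settings.

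Tdp1 on chromosome 12 encodes a DNA repair enzyme that removes stalled topoisomerase from DNA ends, and it overlaps the pseudogene Gm48147. It had 29.6, 27.2 and 32.4 TPM in APOE_H, against 0.64, 0 and 0.02 TPM in APOE_L. It had 5.11, 1.20 and 11.4 TPM in KA_H, against 28.9, 74.6 and 66.8 TPM in KA_L. The groups did not overlap within either condition. The interaction was 7.97 (SE 1.34; 95% interval 5.10 to 10.85; limma adjusted p = 0.0391), between 5.25 and 10.79 over the settings. The positive calls were lost in nearly all fits with fewer libraries: Tdp1 was called in 0 and Blvrb in 1 of the 12 limma fits that left out a library.

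The next positive interactions by p did not pass. Jund, an AP-1 transcription factor gene, had 223, 106 and 172 TPM in APOE_H, 15.7, 11.8 and 17.8 TPM in APOE_L, 20.5, 17.6 and 20.0 TPM in KA_H and 49.3, 75.6 and 105 TPM in KA_L. APOE_H was the highest group, and H and L did not overlap in either condition. Its interaction was 5.21 (SE 0.92; limma adjusted p = 0.0561). The RNA-binding protein gene Hnrnpll had 7.25 (SE 1.29, limma adjusted p = 0.0561), and Efhd2, a calcium-binding protein gene, had 4.91 (SE 0.90, adjusted p = 0.0672). Hnrnpll was at most 1.18 TPM in APOE_L and 0.49 TPM in KA_H. Its size thus depends on the pseudocount, and it lay between 3.89 and 11.10 over the settings. Idh3a, a subunit of isocitrate dehydrogenase in the citric acid cycle, had 6.59 (SE 1.36, limma adjusted p = 0.127). Idh3a was at most 0.04 TPM in APOE_L, and its interaction lay between 4.44 and 9.73 over the settings. Vcp, a segregase that hands proteins to the proteasome, had 5.84 (SE 1.22, limma adjusted p = 0.132). Ak8 and Tmem184a had interactions of 4.14 and 4.07, with adjusted p of 0.127 and 0.132 in limma, and Fah had an adjusted p of 0.132. All 3 reached 1 TPM only in APOE_H, and passed the expression filter through that group.

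Immediate early genes had positive interactions as a list, without a call. Of 21, 20 were tested (Arc was not), all 20 were positive, against 58.5% of all tested entries, 9 had an unadjusted p under 0.05, against 6.69% of all entries, and 0 were called in limma. The median was 1.74, or 1.34 relative to all entries. It lay between 1.22 and 2.06 over the settings, in which 17 to 20 of the 20 were positive. Taken over the 20 genes separately in each condition, the median of H minus L was 0.99 in the APOE condition and -0.98 with KA alone.

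Dusp1, a phosphatase that switches off MAP kinases, had 1660.3, 1358 and 1003 TPM in APOE_H and 573, 627 and 679 TPM in APOE_L. It had 437, 385 and 385 TPM in KA_H and 651, 855 and 691 TPM in KA_L. The order of H and L was opposite in the 2 conditions, without overlap. The interaction was 1.93 (SE 0.41; limma adjusted p = 0.133). Egr1 had 670.0, 707 and 428 TPM in APOE_H, 241, 345 and 178 TPM in APOE_L, 184, 169 and 104 TPM in KA_H and 328, 461 and 600.3 TPM in KA_L. It showed the same order, with an interaction of 2.85 (SE 0.61; adjusted p = 0.143). Fos differed in the APOE condition: APOE_H had 2016, 1144 and 834 TPM and APOE_L 1266, 1729 and 1214 TPM, which overlapped. KA_H had 537, 706 and 519.6 TPM and KA_L 1829.7, 2479.8 and 2084 TPM, which did not. The Fos interaction was 1.70 (SE 0.45; adjusted p = 0.233).

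A pair of promoters of this list hold TGACGTCA, the cyclic AMP response element that the factor CREB binds, and are shown as examples of the sequence before the start of these genes. Both are from RefSeq (GRCm38.p6), on the minus strand, at chr17:26508423-26508722 for Dusp1 and chr1:134079106-134079405 for Btg2, an antiproliferative gene. Capitals mark the match, which is the same on both strands:
Dusp1: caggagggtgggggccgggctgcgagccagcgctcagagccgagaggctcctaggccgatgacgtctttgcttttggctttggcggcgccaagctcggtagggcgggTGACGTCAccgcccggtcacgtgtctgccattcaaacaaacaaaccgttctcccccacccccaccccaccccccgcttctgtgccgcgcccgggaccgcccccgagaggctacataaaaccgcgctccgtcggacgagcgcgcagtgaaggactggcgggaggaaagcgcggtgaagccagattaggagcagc
Btg2: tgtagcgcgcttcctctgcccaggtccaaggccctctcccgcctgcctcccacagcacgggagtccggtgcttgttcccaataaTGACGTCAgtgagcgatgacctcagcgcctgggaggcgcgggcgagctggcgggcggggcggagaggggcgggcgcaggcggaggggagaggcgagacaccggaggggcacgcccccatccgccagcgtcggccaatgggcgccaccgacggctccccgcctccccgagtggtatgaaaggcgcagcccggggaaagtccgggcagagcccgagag
Promoters were found for 17 of the tested genes, 21 promoters in all, and these 2 held a match. Over all 32851 promoters 588 did (1.79%). Btg2 had means of 461 ± 103 TPM in APOE_H, 237 ± 86.5 TPM in APOE_L, 176 ± 36.0 TPM in KA_H and 438 ± 218 TPM in KA_L (SD, n = 3 each), and an interaction of 2.20 (SE 0.67; limma adjusted p = 0.309).

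Chaperone genes had a similar lean. Of 24 tested genes of heat shock and the unfolded protein response, 20 were positive, against 58.5% of all tested entries, 9 positive had an unadjusted p under 0.05, against 6.69%, and 0 were called in limma. The median was 2.07, or 1.66 relative to all entries. Hspa8, the constitutive cytosolic chaperone, had 1170.3, 1135 and 1137 TPM in APOE_H, 306, 306 and 225 TPM in APOE_L, 409.9, 240.1 and 374 TPM in KA_H and 478, 286 and 416 TPM in KA_L. APOE_H stood above the other groups, and KA_H and KA_L overlapped. The interaction was 2.26 (SE 0.50; limma adjusted p = 0.148). Hsp90aa1 had 2.33 (SE 0.56; adjusted p = 0.185), and Hspa5, the chaperone BiP of the endoplasmic reticulum, 2.13 (SE 0.52; adjusted p = 0.185).

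Lists on lipid and adenosine handling had 0 called members in limma. Of 32 tested genes of lipid droplets and fatty acid synthesis, 20 were positive, a share of 62.5% against 58.5% of all tested entries. At an unadjusted p under 0.05 there were 5 positive and 1 negative (15.6% and 3.125%), against 6.69% and 3.29% of all entries. The median was 1.09, or 0.68 relative to all entries. The member with the smallest p was Acaca, which encodes acetyl-CoA carboxylase, the enzyme that starts fatty acid synthesis. It had 577, 558 and 531 TPM in APOE_H, 2814, 2395 and 3243 TPM in APOE_L, 1463, 2089 and 1422 TPM in KA_H and 3763, 3537 and 3326 TPM in KA_L. H lay below L in both conditions without overlap, and the interaction was -1.21 (SE 0.30; limma adjusted p = 0.207). Of 31 genes of cholesterol synthesis, uptake and efflux, 22 were positive, a share of 71.0% against 58.5% of all tested entries. Their median was 0.67, or 0.26 relative to all entries. Ch25h, which makes 25-hydroxycholesterol, was near 0 in KA_L (0.04, 2.24 and 0 TPM) and had an interaction of -5.00 (SE 1.42; adjusted p = 0.265). Of 11 genes of adenosine receptors and metabolism 8 were tested, and 7 of these were positive, against 58.5% of all tested entries. At an unadjusted p under 0.05 there were 3 positive and 0 negative, against 6.69% and 3.29% of all entries. The median was 2.39, or 1.98 relative to all entries. Among the 3 was the ectonucleotidase gene Nt5e. It had 4.56, 13.4 and 4.95 TPM in APOE_H and at most 0.04 TPM elsewhere, and so passed the filter through APOE_H alone.

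**Figure D4:**
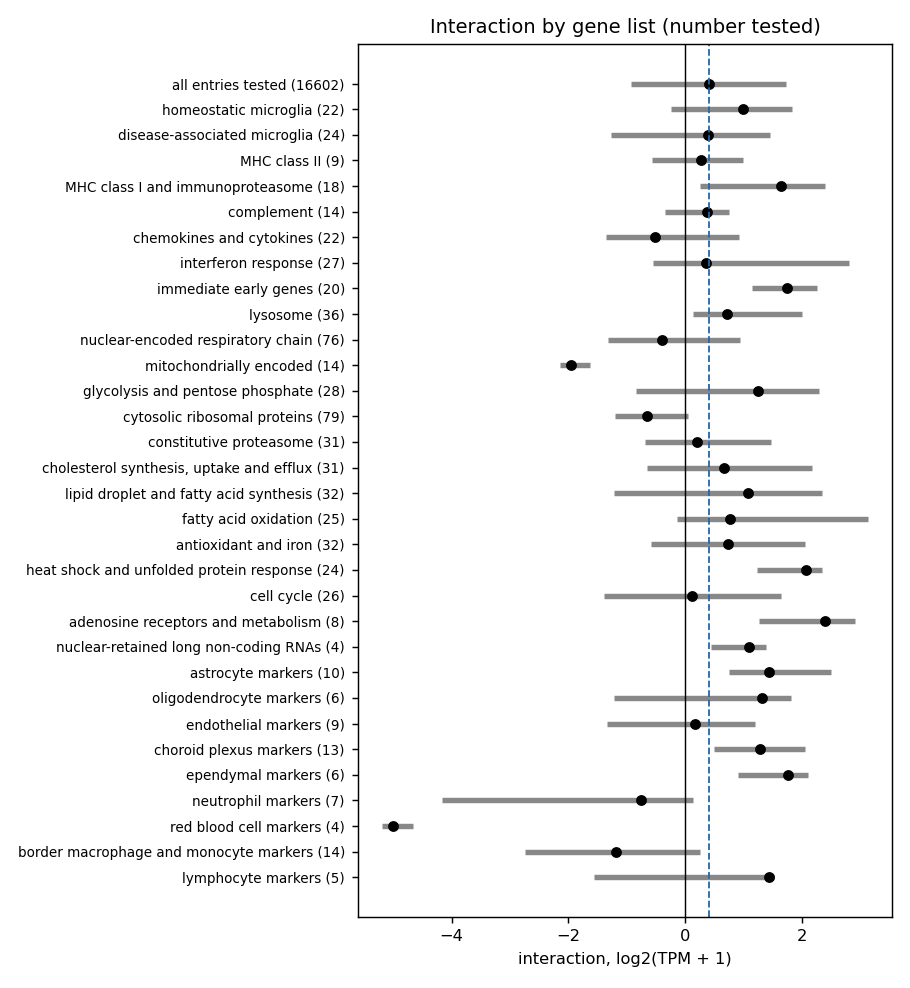
Median interaction (point) and middle range from lower to upper quartile (bar) on log2(TPM + 1) for all tested entries and for each gene list with at least 4 tested members, with the number tested in brackets. The dashed line is the median of all tested entries, 0.41; mitochondrially encoded genes have a median of -1.95 and immediate early genes of 1.74.

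Several properties of the libraries moved with the groups, and their part in the results was not tested. Assembled loci without a gene name took 2.20% to 3.17% of TPM in APOE_H libraries and 10.6% to 11.3% in APOE_L libraries. Their share was 4.51% to 6.78% in KA_H libraries and 11.4% to 12.1% in KA_L libraries. Between 12801 and 15452 entries reached 1 TPM in APOE_H libraries, against 10161 to 11237 in APOE_L libraries, and 13192 to 13635 did in KA_H libraries, against 9931 to 12085 in KA_L libraries. Markers of the choroid plexus, the tissue that makes cerebrospinal fluid, summed to 38757 to 59587 TPM in APOE_H, 126 to 297 TPM in APOE_L, 33404 to 41565 TPM in KA_H and 57.9 to 1287 TPM in KA_L. All 13 were tested, 11 had a positive interaction, against 58.5% of all tested entries, and 0 were called in limma (0 at an unadjusted p under 0.05), with a median of 1.29. Astrocyte markers summed to 2041 to 2649 TPM in APOE_H and 199 to 300 TPM in APOE_L. With KA alone they summed to 940 to 1133 TPM in KA_H and 198 to 403 TPM in KA_L. Of 10 tested astrocyte markers, 8 had a positive interaction and 0 were called in limma. Oligodendrocyte markers summed to 1169 to 1653 TPM in APOE_H and 243 to 356 TPM in APOE_L. Their sums in KA_H, 190 to 525 TPM, and in KA_L, 125 to 258 TPM, overlapped. Red blood cell markers summed to 43.7 to 749 TPM in APOE_H, 0.1 to 7386 TPM in APOE_L, 384 to 4092 TPM in KA_H and 81.0 to 156 TPM in KA_L. Their 4 tested members had a median of -5.00, 0 were called in limma and 0 had an unadjusted p under 0.05. Alas2, the heme synthesis gene of developing red cells, was listed at 0 in all 12 libraries.

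**Figure D5:**
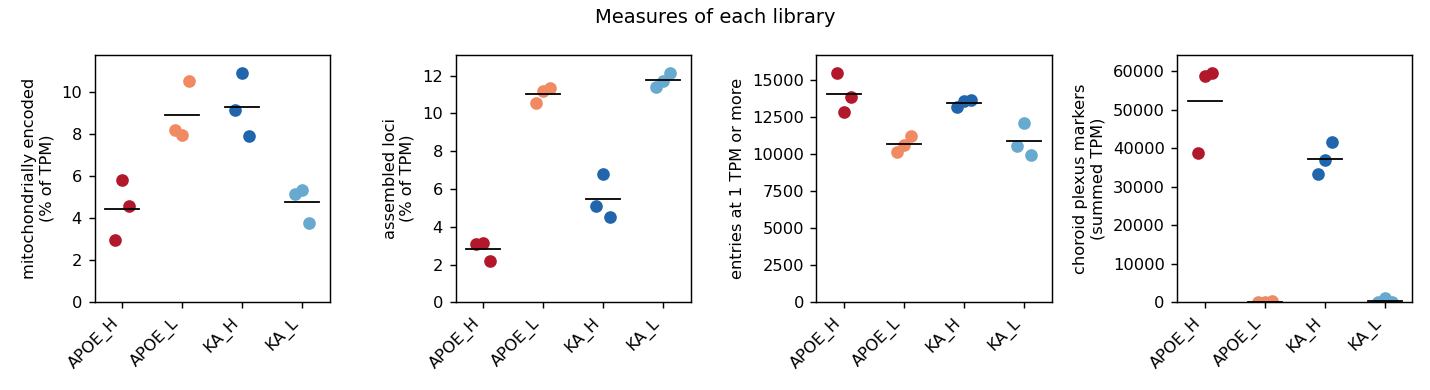
Share of TPM in mitochondrially encoded genes, share in assembled loci, entries at 1 TPM or more, and summed TPM of choroid plexus markers; points are the 12 libraries and lines are group means. The mitochondrial share is high in APOE_L and KA_H, whereas the other 3 measures separate H from L in both conditions.

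Markers of monocytes and of macrophages of the brain borders had values of both signs. Of 14 tested, 6 were positive, a share of 42.9% against 58.5% of all tested entries. At an unadjusted p under 0.05 there were 0 positive and 3 negative, against 6.69% and 3.29% of all entries. None of these markers was called in limma. Their summed level ran from 484 to 1008 TPM in APOE_H, 270.1 to 690.2 TPM in APOE_L, 467 to 1126 TPM in KA_H and 121 to 458 TPM in KA_L. Mrc1, the mannose receptor of border macrophages, had 17.6, 57.3 and 8.68 TPM in APOE_H, 81.8, 130.3 and 37.4 TPM in APOE_L, 4.35, 49.9 and 14.2 TPM in KA_H and 3.79, 0.38 and 0.47 TPM in KA_L. KA_L was the lowest group, and the interaction was -4.68 (SE 1.54; limma adjusted p = 0.355). Summed homeostatic microglia markers ran from 26074 to 40857 TPM in APOE_H, 18894 to 22690.0 TPM in APOE_L, 19888 to 22571 TPM in KA_H and 14164 to 19383 TPM in KA_L.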

How the data were processed

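RNA was extracted with Trizol and sequenced after TruSeq preparation, per the labels' protocols. The authors deposited TPM values for 65964 entries in 15 libraries, each summing to the same total, which leaves the read depth unknown and counting error without an interval. STAR and GRCh38 are named per the submitters' processing notes; GRCh38 is a human build whereas the identifiers are mouse genes, so gene coordinates of the files are not given. The quantification tool was not given in the sources used here. Symbols came from GENCODE M21, matching 52083 of 55416 Ensembl identifiers; 10548 entries were assembled loci.

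Tested were entries reaching 1 TPM in 3 or more of the 12 libraries (16602, of which 11580 were protein-coding). They were fitted on log2(TPM + 1), a pseudocount of 1, by limma 3.58.1 under R 4.3.3, using lmFit and contrasts.fit followed by eBayes with a trend, with 1 mean per group and 8 residual degrees of freedom. The pseudocount understates changes of low genes. P-values were two-sided and adjusted by Benjamini-Hochberg over all tested entries. Other pseudocounts, filters, scalings, variance models and left-out libraries were run as alternatives.

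Members and lists were chosen with earlier results of these data known. Named genes were Apoe, in each direction up to 14 called genes with the largest interaction and a group mean of at least 10 TPM, filled to 14 by the smallest unadjusted p, called list members, the first 2 members of each list and its member with the smallest p. The remaining mitochondrial genes are given to complete that list, Btg2 for its promoter, and Csf1r, Gpr34, Hsp90aa1 and Hspa5 were chosen after their values were seen.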

Additional observations from a re-analysis of the deposited data

Results flagged for a closer look

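For each of 18 entries, the H minus L difference in the APOE condition differed from that with KA alone by the test of the difference itself (limma, adjusted p under 0.05). The interactions on log2(TPM + 1) were, on the positive side, 7.97 for Tdp1 and 6.93 for Blvrb. Among mitochondrial transcripts they were -2.30 for mt-Atp6, -2.16 for mt-Nd1, -2.15 for mt-Cytb, -2.10 for mt-Atp8, -1.97 for mt-Co2 and -1.75 for mt-Rnr2. The nuclear copies Gm29216 and Gm28437 had -2.30 and -2.15. Among immune genes the interaction was -2.16 for Fcer1g, -2.14 for B2m and -1.75 for Tyrobp. The remaining values were -6.41 for Gm24616, -6.39 for Gm42845, -6.23 for Tmem147, -5.95 for Churc1 and -1.59 for Eif4g3.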

How the results depend on the processing

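The 18 called entries kept their direction in every alternative in which they were fitted. The number called, 18, was 0 with a pseudocount of 5, without a mean-variance trend and with the replicate number as a block, where 1669, 1598 and 1626 entries had an unadjusted p under 0.05 in limma. It was 29 with upper-quartile scaling, 5 with quantile normalization and 8 with all 15 libraries in the fit. Positive calls, 2 in number, were 5 with no filter, 4 with a filter at 5 TPM, 4 over entries with a symbol only (an alternative chosen after seeing the data), 1 with upper-quartile scaling, 1 with quantile normalization, and 0 with a pseudocount of 5, all 15 libraries, no trend, robust variance or the replicate block. Negative calls, 16 in number, were 7 with no filter, 28 with upper-quartile scaling, 4 with quantile normalization, 8 with all 15 libraries, and 0 with a pseudocount of 5, no trend or the replicate block. Leaving out 1 library gave 0 to 37 calls, 0 to 6 of them positive and 0 to 31 negative. The cause was not tested. Between libraries with the same replicate number, correlations of what remained beyond the group differences were small (-0.027 to 0.0374 over 18 pairs). They are not correlations of the levels themselves. Even so, 8 of 12 libraries correlated best with their own number. These values cannot settle whether the numbers pair the samples, because each group has only 3 libraries. TPM keeps no depth, so the error of low values cannot be given.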

Other observations

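The untreated CTRL_L libraries lie outside the design, and their values for the called entries are given for comparison by eye only. In replicates 1, 2 and 3, choroid plexus markers summed to 140, 39564 and 24226 TPM. Homeostatic microglia markers summed to 47882, 15389 and 18305 TPM. The part of this unevenness in the values below was not tested. mt-Atp6 had 12547, 23615 and 26102 TPM in CTRL_L, a wide range within 1 group. Tyrobp had 7138, 3169 and 3631 TPM and Fcer1g 3175, 2034 and 2413 TPM. B2m had 6871, 8041 and 4955 TPM, near or below the KA_L libraries. Eif4g3 had 5305, 9528 and 7999 TPM, above the APOE_H libraries and below the L libraries of both conditions.

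Several genes that were near 0 in a single group of the design were also uneven among the untreated libraries. Tdp1 had 131, 1.83 and 8.84 TPM in CTRL_L, and Blvrb had 91.8 TPM in replicate 1 and was listed at 0 in replicates 2 and 3. Gm24616 was listed at 0 in replicates 1 and 3 and had 83.1 TPM in replicate 2. Gm42845 had 18.9, 118 and 0 TPM. Churc1, at 126, 238 and 615 TPM, and Tmem147, at 52.3, 26.6 and 104 TPM, were above all KA_L libraries in each untreated library.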
